A study of Mus musculus with 46 samples.

Results

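Sugars are built onto proteins and lipids by a chain of enzymes that starts in the cytosol, runs through the endoplasmic reticulum and ends in the Golgi, and 8 mouse genes from several steps of that chain were followed here in mouse embryonic fibroblasts (MEFs). Gne and Nans make sialic acid, Slc35a1 carries activated sialic acid into the Golgi, and B4galt1 and Galt handle galactose. Alg2 and Manea act on N-linked glycans, and Pigo helps to build the anchor that tethers some proteins to the outer face of the cell membrane. They were taken by name, by matching the Ensembl identifiers of the count table to the GENCODE M21 annotation, and a mean of 5 CPM, reads scaled to library size, was the minimum. All 8 of 8 passed it, out of 55416 identifiers in the table and 8986 with enough reads to test. The 8 are a set of transporters and enzymes and not only of sialic acid: Galt is a cytosolic enzyme of galactose breakdown, and Slc35a1 is a transporter.

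The study asked which transcripts need the stress transcription factor ATF4 when translation is disturbed. RNA was sequenced after 7 h from ATF4 KO cells in 600 nM borrelidin (12 libraries), ATF4 KO cells in the vehicle DMSO (11), wild type cells in 600 nM borrelidin (12) and wild type cells in DMSO (11). Borrelidin blocks threonyl-tRNA synthetase, which loads threonine onto its tRNA, and uncharged tRNA activates the kinase GCN2 and through it the translation of ATF4. Wild type MEFs were purchased and the ATF4 KO line was made in house with CRISPR/Cas9 and cell sorting. The number of clones and whether both lines share a parent are left unstated, so ATF4 loss and any other difference between the lines cannot be told apart, and the p-values measure the spread between cultures of these lines.

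The members lie on chromosome 4 (GRCm38) between bases 26324506 and 47474333. In a stretch around them the mean log2 levels of identifiers followed those of 19 genes in the study's own table (Pearson r = 0.963). Over all 1788 genes of that table found among the identifiers, they hardly did (r = 0.145). Rows outside the stretch, that of Atf4 included, were therefore not read as genes, and the loss of Atf4 was not analysed here. The members were read by their place in the stretch, and their own rows were not each verified. The nearest checked genes lay 14.2 and 8.84 Mb to either side of Manea and 22.6 and 0.504 Mb to either side of Slc35a1. For the other members they lay at most 1.191 Mb away on each side. The libraries held 2047362 to 3467765 assigned reads each. The fibroblast genes of the stretch Tln1, Tpm2, Npr2 and Reck averaged 2220, 565, 197 and 39.5 CPM over the 46 libraries, while Col15a1, a matrix collagen, averaged 0.973 CPM. Of the marker genes of other cells, the epithelial Esrp1 and Aqp3, the T cell gene Sit1, the blood gene Hemgn and the neural Lingo2 averaged under 1 CPM, Grin3a 1.27, Gabbr2 7.01 and the B cell genes Pax5 and Cd72 6.77 and 92.8 CPM.

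Not all libraries of a group were alike. On the second principal component of the 500 most variable rows (22.1% of the variance), 14 libraries stood apart from the rest of their group, namely ATF4 KO borrelidin replicates 1 to 3, ATF4 KO vehicle replicates 1 to 3 and wild type vehicle replicates 1 to 8. No wild type borrelidin library stood apart, so only 3 wild type vehicle libraries resembled the 12 wild type borrelidin libraries in this respect. Reads on no feature were 67.6% to 70.9% in the 14 libraries and 63.8% to 70.8% in the other 32, and depths overlapped too. Each result is given with all 46 libraries and with the 32. In a further fit without the 2 shallowest libraries, wild type borrelidin replicates 5 and 10, which was added after the data were seen, 30 libraries remained.

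Sialic acids are acidic sugars that cap the glycans of the cell surface. GNE makes the first committed precursor from UDP-GlcNAc, NANS condenses it to the 9-phosphate of sialic acid, and SLC35A1 delivers the CMP-activated sugar to the sialyltransferases of the Golgi. Glycosylation and the handling of unfolded glycoproteins both belong to the secretory pathway, whose stress branch PERK converges on ATF4. B4GALT1 adds the galactose to which sialic acid is attached, ALG2 adds mannoses to the dolichol-linked precursor of N-glycans, and MANEA trims glucosylated mannose from N-glycans in the Golgi. PIGO adds ethanolamine phosphate to the growing GPI anchor.

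The DNA before the start sites was examined because ATF4 acts by binding short elements there. RefSeq windows (GRCm38.p6) were found for 6 of the 8 genes, Manea, Slc35a1, B4galt1, Galt, Pigo and Gne. The 250 bases upstream of the start site closest to the annotated 5′ end are shown for 3 of them. Manea and Pigo were chosen because their responses differed between the lines with all libraries, though not among the 32. Gne was chosen because it fell in both lines among the 32 libraries. B4galt1 and Slc35a1, whose responses also differed with all libraries, are not shown. All 3 windows shown are written 5′ to 3′ on the minus strand. The start sites used for Manea (26346652) and Galt (41755517) lie inside the annotated genes, whose 5′ ends are at 26346891 and 41755228. Most of the Manea window and all of the Galt window are thus within the annotated gene. Capitals mark CCACG or its reverse complement CGTGG, the second part of the endoplasmic reticulum stress element.
Manea, chr4:26346653-26346902: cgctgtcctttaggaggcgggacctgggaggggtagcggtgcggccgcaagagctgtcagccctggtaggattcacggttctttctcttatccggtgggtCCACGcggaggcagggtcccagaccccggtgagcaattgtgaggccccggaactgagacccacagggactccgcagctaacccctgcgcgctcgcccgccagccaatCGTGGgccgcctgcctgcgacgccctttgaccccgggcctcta
Pigo, chr4:43025815-43026064: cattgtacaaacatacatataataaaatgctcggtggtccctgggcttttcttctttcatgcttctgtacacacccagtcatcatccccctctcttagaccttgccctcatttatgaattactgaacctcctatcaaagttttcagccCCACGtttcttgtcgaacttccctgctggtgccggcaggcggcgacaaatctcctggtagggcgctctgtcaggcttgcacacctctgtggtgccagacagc
Gne, chr4:44084178-44084427: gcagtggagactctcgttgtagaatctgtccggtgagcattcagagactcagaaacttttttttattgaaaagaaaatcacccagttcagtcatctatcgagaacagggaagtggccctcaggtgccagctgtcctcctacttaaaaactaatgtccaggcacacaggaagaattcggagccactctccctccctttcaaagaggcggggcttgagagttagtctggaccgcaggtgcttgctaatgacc
The ATF4 element was searched on both strands as ATTGCATCA, GTTGCATCA, ATTTCATCA or GTTTCATCA and was found in no window of the 6 genes. It was found in 0.718% of all 32851 RefSeq windows of that length. The full stress element, CCAAT then 9 bases then CCACG, was also absent from the 6 genes and present in 0.113% of all windows. CCACG alone, in either orientation, occurred in at least 1 window of 5 of the 6 genes (for Gne only at another start site). Of all single windows, 28.3% held it. A gene can have several windows, so the count of genes and the share of windows cannot be compared. In the windows closest to the annotated 5′ ends, it occurred 2 times each in Manea and Galt, 1 time each in B4galt1 and Pigo and in neither Slc35a1 nor Gne. These matches describe letters and not bound sites.

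Per kilobase of exon, which allows genes to be compared, Nans was the most abundant with 113 ± 24.2 normalized CPM per kb (mean and SD over 46 libraries). B4galt1 and Slc35a1 followed at 69.2 ± 9.26 and 68.3 ± 14.6, then Alg2 and Pigo at 38.9 ± 12.1 and 37.3 ± 13.4, then Manea and Galt at 23.6 ± 5.11 and 22.1 ± 4.75, and Gne was last with 14.1 ± 2.88. Nans was above B4galt1 in 46 of 46 libraries and Slc35a1 above Alg2 in 46 of 46. B4galt1 exceeded Slc35a1 in only 24 of 46 and Manea exceeded Galt in 26 of 46, so neither of these neighbours could be ordered beyond the spread, nor could Alg2 and Pigo (31 of 46).

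**Figure D1:**
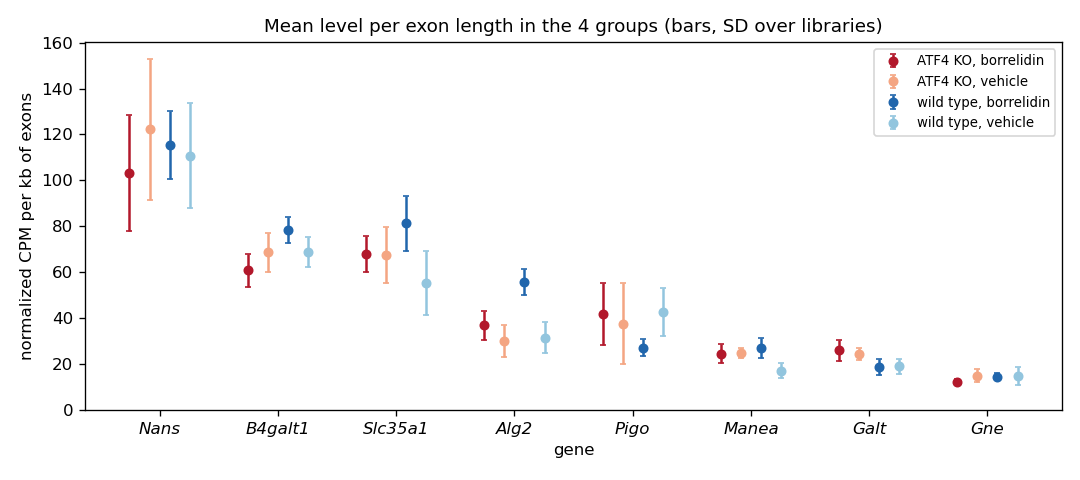
Mean level of the 8 genes in normalized CPM per kb of exons (vertical axis), in ATF4 KO cells with borrelidin, ATF4 KO cells with vehicle, wild type cells with borrelidin and wild type cells with vehicle; bars are the SD over the 11 or 12 libraries of a group. Nans is highest in every group and Gne lowest, and the Alg2 point of wild type cells with borrelidin stands above the other 3 Alg2 points.

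A gene was called at a Benjamini-Hochberg adjusted p under 0.05 over all rows in the edgeR quasi-likelihood test. The share of all rows whose groups did not overlap between treatments or lines was not computed. Such separations are therefore given below as descriptions. Borrelidin in ATF4 KO cells raised 1 gene (Alg2) and lowered 2 (Gne and B4galt1), with 15.0% of all rows called higher and 15.3% lower. With the 32 libraries it raised 2 (Alg2 and Pigo) and lowered 3 (Gne, Nans and B4galt1), against 21.7% and 20.1% of all rows. In wild type cells borrelidin raised 4 (Slc35a1, B4galt1, Alg2 and Manea) and lowered 1 (Pigo), with 26.5% of all rows called higher and 32.9% lower. The 32 libraries gave 2 raised (Alg2 and Manea) and 2 lowered (Gne and Nans), against 9.99% and 8.70%. The median log2 fold change (all libraries) of the 8 genes was 0.00 in ATF4 KO and 0.12 in wild type cells, beside -0.03 and -0.06 over all rows and 0.06 and 0.15 over the 216 rows tested in the stretch. In each line, with all libraries, the share of members called was close to that of all rows. With no filter on low counts 0 of the 8 passed in ATF4 KO cells, where 6.09% of all rows did. Alg2 was the only gene called in the same direction in both lines with both sets of libraries. With the 32 libraries Gne and Nans were also called in the same direction in both lines, both lower.

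**Figure D2:**
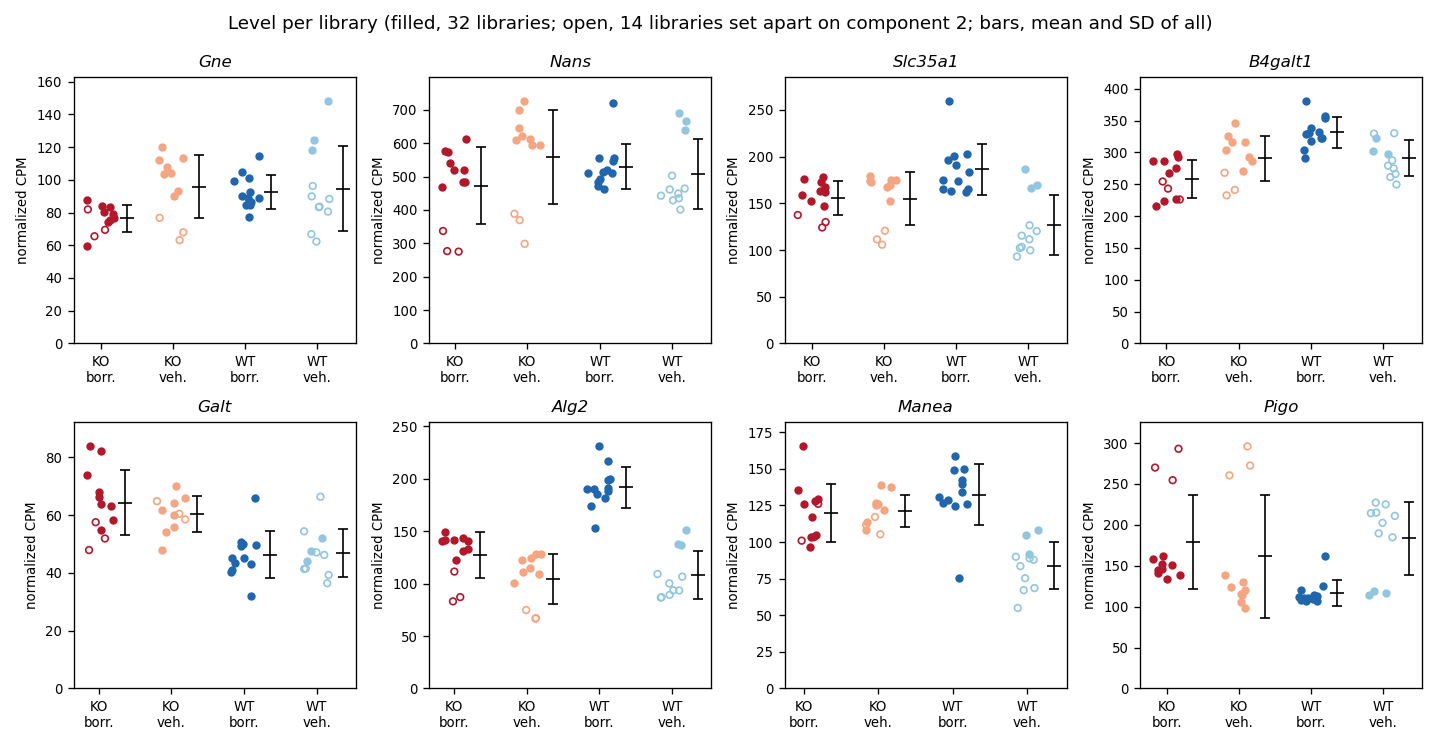
Normalized CPM of the 8 genes in each library (vertical axes, starting at 0), with the groups in the order ATF4 KO borrelidin, ATF4 KO vehicle, wild type borrelidin and wild type vehicle. Open circles are the 14 libraries that stood apart on the second component, filled circles the other 32, and black bars the mean and SD of all; Pigo is higher in every open circle than in any filled circle of its group, and the 12 wild type borrelidin points of Alg2 lie above all wild type vehicle points.

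Gne and Nans make sialic acid, and their levels under borrelidin were lower than under vehicle in both lines once the 32 libraries were compared. Gne (ENSMUSG00000028479, chr4:44034075-44084177, minus strand) had 59.5, 78.0 and 87.9 normalized CPM (lowest, median and highest library) in ATF4 KO cells with borrelidin, against 63.1, 103.6 and 119.9 in ATF4 KO cells with vehicle. In wild type cells it had 77.1, 89.7 and 114.7 CPM with borrelidin, against 62.2, 88.3 and 147.9 with vehicle. The ATF4 KO vehicle values fell into a low group, the 3 libraries set apart at 63.1 to 76.7 CPM, and a high group at 90.4 to 119.9. The fold change with borrelidin was 0.799 in ATF4 KO cells (log2 -0.32, SE 0.108, adjusted p = 0.0185) and 0.98 in wild type cells (log2 -0.03, SE 0.108, adjusted p = 0.832). Among the 32 libraries the groups did not overlap in either line. Borrelidin gave 77.8 ± 8.19 CPM (n = 9), against 105.6 ± 10.0 with vehicle (n = 8) in ATF4 KO cells, a log2 change of -0.44 (SE 0.0765, adjusted p = 1.1e-05). In wild type cells it gave 92.7 ± 10.4 CPM (n = 12), against 130.1 ± 15.7 with vehicle (n = 3), a log2 change of -0.49 (SE 0.098, adjusted p = 0.00025). The wild type fall thus rests on 3 vehicle libraries.

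Nans (ENSMUSG00000028334, chr4:46489248-46503632, plus strand), the sialic acid phosphate synthase, gave a like picture at a higher level. It had 275.1, 501.9 and 611.7 CPM in ATF4 KO cells with borrelidin, against 298.5, 608.4 and 725.2 with vehicle, and 464.0, 511.8 and 719.6 CPM in wild type cells with borrelidin, against 401.1, 461.2 and 690.1 with vehicle. The groups overlapped in both lines. With all libraries the log2 change was -0.24 (SE 0.13, adjusted p = 0.155) in ATF4 KO and 0.06 (SE 0.13, adjusted p = 0.709) in wild type cells, and neither passed. Among the 32 libraries Nans fell to 531.2 ± 48.8 CPM with borrelidin, against 637.5 ± 49 with vehicle in ATF4 KO cells (log2 -0.26, SE 0.0671, adjusted p = 0.0016). It fell to 529.0 ± 67.4 CPM with borrelidin, against 665.5 ± 24.8 with vehicle in wild type cells (log2 -0.33, SE 0.0875, adjusted p = 0.0053). With the replicate number as a block in the ATF4 KO libraries, all 23 included, Nans passed as well (log2 -0.26, adjusted p = 0.0022). The responses of Gne and Nans did not differ detectably between the lines, with intervals for the difference of responses of -0.21 to 0.31 and -0.16 to 0.30 log2 among the 32 libraries. Of the exon bases of Nans, 29.6% are shared with Trim14 on the opposite strand (42.3 CPM), and the counting may or may not have used strand.

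Slc35a1 (ENSMUSG00000028293, chr4:34663257-34687438, minus strand), the CMP-sialic acid transporter, rose in wild type cells with all libraries only. It had 124.1, 160.2 and 178.5 CPM in ATF4 KO cells with borrelidin, against 105.7, 170.0 and 179.0 with vehicle. In wild type cells it had 161.7, 179.3 and 259.1 CPM with borrelidin, against 93.1, 115.4 and 186.3 with vehicle. The 8 wild type vehicle libraries set apart held 93.1 to 126.4 CPM and the other 3 held 166.8 to 186.3, within the range of the borrelidin libraries. The fold change in wild type cells was 1.47 with all libraries (log2 0.56, SE 0.106, adjusted p = 2.2e-05) and 1.07 among the 32 (log2 0.10, SE 0.0942, adjusted p = 0.549). In ATF4 KO cells it was 1.01 and 0.962, and neither passed (adjusted p = 0.969 and 0.551).

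B4galt1 (ENSMUSG00000028413, chr4:40804602-40854005, minus strand), the galactosyltransferase of N-glycans, was lower with borrelidin in ATF4 KO cells. It had 215.8, 261.3 and 296.7 CPM in ATF4 KO cells with borrelidin, against 232.5, 292.7 and 345.5 with vehicle. Of the 12 borrelidin libraries, 4 lay below every vehicle library. The fold change was 0.888 (log2 -0.17, SE 0.0665, adjusted p = 0.0438) and 0.859 among the 32 libraries (log2 -0.22, SE 0.065, adjusted p = 0.0060), but without the 2 shallowest libraries alone it no longer passed (log2 -0.15, adjusted p = 0.0701). In wild type cells it had 291.0, 329.4 and 380.0 CPM with borrelidin, against 249.5, 287.5 and 330.1 with vehicle, a fold change of 1.14 (log2 0.19, SE 0.0665, adjusted p = 0.0135) that did not pass among the 32 libraries (1.08, log2 0.11, adjusted p = 0.435). Scaled on the rows of the stretch alone, the wild type change was 0.00 log2.

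Galt (ENSMUSG00000036073, chr4:41755228-41758695, plus strand) encodes galactose-1-phosphate uridylyltransferase, which converts galactose-1-phosphate to UDP-galactose. No change with borrelidin passed. Galt was higher in ATF4 KO cells under borrelidin with all libraries and with the 32. Under vehicle it was called higher with all libraries but not among the 32. It had 47.9, 63.5 and 83.8 CPM in ATF4 KO cells with borrelidin, against 48.0, 60.5 and 70.0 with vehicle, and 31.9, 45.1 and 66.0 CPM in wild type cells with borrelidin, against 36.4, 46.2 and 66.4 with vehicle. Groups with and without borrelidin overlapped in both lines. The log2 change was 0.09 in ATF4 KO (95% interval -0.10 to 0.28) and -0.02 in wild type cells (-0.22 to 0.17), and neither passed (adjusted p = 0.513 and 0.843). Scaled on the rows of the stretch alone, the wild type change was -0.22 and passed (adjusted p = 0.0419). Galt lies within the span of Il11ra1 on the same strand (61.0 CPM), and other annotated genes overlap it, so part of its reads cannot be assigned with certainty.

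Alg2 (ENSMUSG00000039740, chr4:47465067-47474333, minus strand), the mannosyltransferase of the dolichol-linked precursor, showed the largest rise of the 8 in wild type cells, with all libraries and with the 32. It had 153.3, 190.3 and 230.9 CPM in wild type cells with borrelidin, against 86.6, 100.2 and 151.3 with vehicle, so all 12 borrelidin libraries lay above all 11 vehicle libraries. In ATF4 KO cells it had 83.1, 137.0 and 149.1 CPM with borrelidin, against 66.6, 110.8 and 128.6 with vehicle, and 8 of 12 borrelidin libraries lay above every vehicle library. The fold change was 1.22 in ATF4 KO cells (log2 0.29, SE 0.113, adjusted p = 0.0486) and 1.77 in wild type cells (log2 0.83, SE 0.113, adjusted p = 5.1e-08). Among the 32 libraries both remained called, with folds of 1.18 in ATF4 KO (log2 0.24, SE 0.0652, adjusted p = 0.0033) and 1.35 in wild type cells (log2 0.43, SE 0.0878, adjusted p = 0.00029). There, Alg2 averaged 138.3 ± 7.89 CPM in ATF4 KO cells with borrelidin and 117.4 ± 10.3 with vehicle, and 191.8 ± 19.7 CPM in wild type cells with borrelidin and 142.2 ± 7.90 with vehicle.

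Manea (ENSMUSG00000040520, chr4:26324506-26346891, minus strand), the Golgi endo-alpha-mannosidase, rose in wild type cells, and in ATF4 KO cells no change passed. It had 75.5, 132.3 and 158.5 CPM in wild type cells with borrelidin, against 55.0, 87.8 and 108.2 with vehicle, and 11 of 12 borrelidin libraries lay above every vehicle library. The exception, at 75.5 CPM, was replicate 5, one of the 2 shallowest libraries. In ATF4 KO cells Manea had 96.3, 121.4 and 165.3 CPM with borrelidin, against 105.3, 122.0 and 138.8 with vehicle. The fold change was 1.58 in wild type cells (log2 0.66, SE 0.0969, adjusted p = 2.1e-07) and 1.31 among the 32 libraries (log2 0.39, SE 0.133, adjusted p = 0.0359). In ATF4 KO cells it was 0.988 (95% interval of log2 -0.21 to 0.17, adjusted p = 0.919).

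Pigo (ENSMUSG00000028454, chr4:43017635-43025819, minus strand), the ethanolamine phosphate transferase of the GPI anchor, fell into a high and a low set of libraries in 3 of the 4 groups. It had 134.0, 151.9 and 293.0 CPM in ATF4 KO cells with borrelidin, against 98.2, 124.5 and 295.9 with vehicle, and 106.7, 111.2 and 162.3 CPM in wild type cells with borrelidin, against 114.7, 202.5 and 227.2 with vehicle. The highest values were those of the libraries set apart, which averaged 272.5 CPM (3 libraries) in ATF4 KO cells with borrelidin, 276.3 CPM (3 libraries) with vehicle and 208.6 CPM (8 libraries) in wild type cells with vehicle. The other libraries of these groups averaged 147.7, 118.3 and 116.8 CPM. With all libraries the fold change was 1.11 in ATF4 KO (log2 0.15, SE 0.169, adjusted p = 0.545) and 0.634 in wild type cells (log2 -0.66, SE 0.171, adjusted p = 0.0010). Among the 32 it was 1.25 in ATF4 KO (log2 0.32, SE 0.071, adjusted p = 0.00033) and 0.996 in wild type cells (95% interval of log2 -0.20 to 0.19, adjusted p = 0.979). With the replicate block, the 23 ATF4 KO libraries also gave a rise (log2 0.23, adjusted p = 0.0073).

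The libraries set apart differed from the rest of their group for other members too. Slc35a1, Nans and Alg2 were lower in all of them than in any other library of the same group, in each of the 3 groups. Of the 8 genes, 3 lay wholly below in ATF4 KO cells with borrelidin, 5 in ATF4 KO cells with vehicle and 5 in wild type cells with vehicle, where 19.8%, 21.4% and 19.9% of all tested rows did. Pigo alone lay wholly above, in all 3 groups, as did 17.5%, 22.5% and 20.6% of all rows. These sets were defined from the same counts, so the values are a description. What set these libraries apart was not tested.

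Whether the response to borrelidin depended on the line was tested as the ATF4 KO response minus the wild type response. With all libraries 5 of 8 genes passed, 1 positive (Pigo) and 4 negative (Manea, Slc35a1, Alg2 and B4galt1), beside 17.1% of all rows positive and 16.5% negative. In the 32 libraries 1 passed, B4galt1, which was negative, and none was positive, beside 6.28% of all rows negative and 3.62% positive. In the 30 libraries 3 passed, Manea and B4galt1 negative and Pigo positive, where 15.4% of all rows passed in either direction. Manea gave -0.68 log2 with all libraries (SE 0.136, adjusted p = 0.00016), -0.41 in the 32 (SE 0.164, adjusted p = 0.111) and -0.47 in the 30 (SE 0.129, adjusted p = 0.0088). The difference thus passed with all libraries and in the 30, and missed the threshold in the 32.

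B4galt1 gave -0.36 log2 (SE 0.094, adjusted p = 0.0033), -0.33 (SE 0.109, adjusted p = 0.0462) and -0.32 (adjusted p = 0.0201) in the same 3 fits, and it was the member called in all of them. Scaled on the stretch alone it gave -0.18 and did not pass (adjusted p = 0.0949). Pigo gave 0.81 (SE 0.241, adjusted p = 0.0092), 0.33 (SE 0.119, adjusted p = 0.0757) and 0.39 (adjusted p = 0.0031). Alg2 gave -0.54 (SE 0.159, adjusted p = 0.0084), -0.20 (SE 0.108, adjusted p = 0.281) and -0.18 (adjusted p = 0.252), so a smaller rise of Alg2 in ATF4 KO cells was called only where the 14 libraries were included. The same held for Slc35a1, at -0.55 (SE 0.149, adjusted p = 0.0045), -0.15 (SE 0.118, adjusted p = 0.487) and -0.11 (adjusted p = 0.452).

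**Figure D3:**
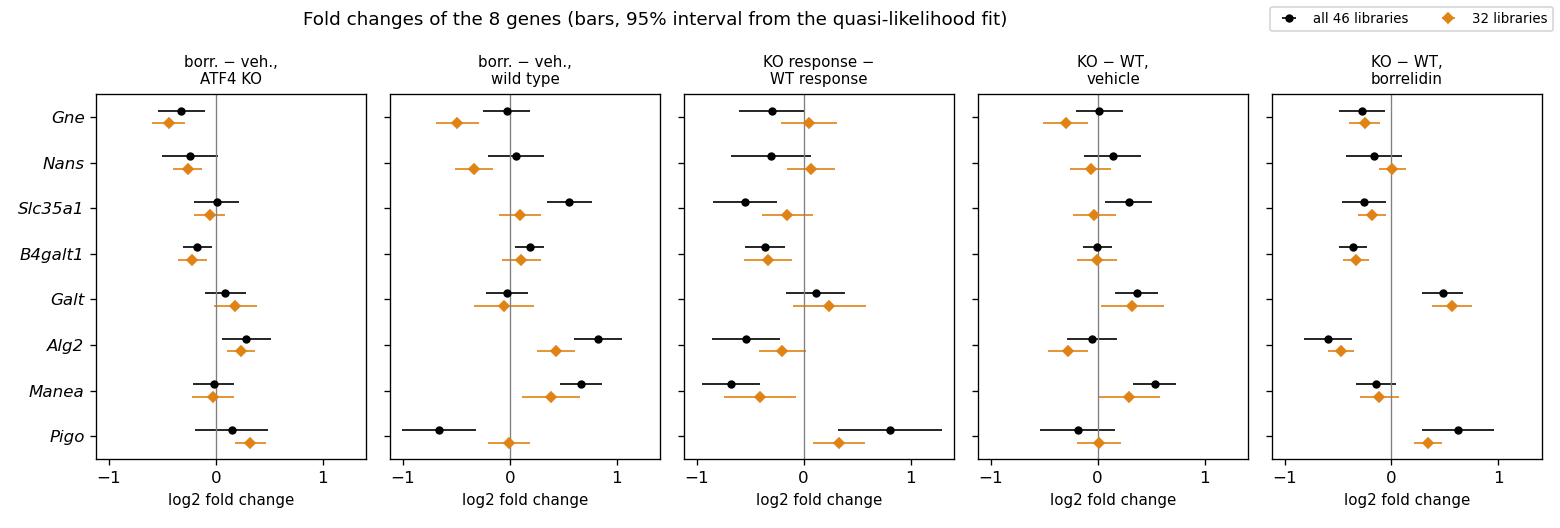
Log2 fold change (horizontal axes) of the 8 genes in 5 comparisons: borrelidin minus vehicle in ATF4 KO cells, the same in wild type cells, the difference of these responses, and ATF4 KO minus wild type with vehicle and with borrelidin. Black circles use all 46 libraries and orange diamonds the 32 that did not stand apart, with 95% intervals; the wild type changes of Gne, Nans, Slc35a1 and Pigo move by about the width of their intervals between the fits.

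The 2 lines were also compared within a treatment. With vehicle, 3 of 8 genes were higher in ATF4 KO cells (Manea, Galt and Slc35a1) and 0 lower, beside 18.1% of all rows higher and 17.2% lower. Manea averaged 121.1 ± 11.1 CPM in ATF4 KO cells and 83.7 ± 16.1 in wild type cells, a fold of 1.45 (log2 0.53, SE 0.0985, adjusted p = 1.9e-05), and 9 of 11 ATF4 KO libraries lay above every wild type library. None of these 3 remained among the 32 libraries, where Manea had 124.8 ± 10.5 CPM (n = 8), against 101.6 ± 8.80 (n = 3) in wild type cells (log2 0.30, adjusted p = 0.127), and Galt gave log2 0.33 (adjusted p = 0.102). In the 30 libraries Manea passed again (log2 0.29, adjusted p = 0.0390). Of the 8 genes in the 32 libraries, 0 were higher and 2 lower in ATF4 KO cells, Gne (log2 -0.30, adjusted p = 0.0335) and Alg2 (log2 -0.28, adjusted p = 0.0235), beside 10.9% of all rows higher and 10.3% lower.

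Under borrelidin all wild type libraries and 9 of 12 ATF4 KO libraries belonged to the 32. With all libraries 2 of 8 genes were higher in ATF4 KO cells (Galt and Pigo) and 4 lower (Alg2, B4galt1, Gne and Slc35a1), beside 25.7% of all rows higher and 24.1% lower. The same 6 genes were called in the same directions among the 32 libraries, beside 27.1% and 27.2% of all rows, so the share of members called higher was close to that of all rows and the share called lower was above it. Alg2 averaged 127.2 ± 22.2 CPM in ATF4 KO cells and 191.8 ± 19.7 in wild type cells, a fold of 0.663 (log2 -0.59, SE 0.109, adjusted p = 1.2e-05), and all 12 ATF4 KO libraries lay below all 12 wild type libraries. B4galt1 averaged 258.0 ± 30.3 CPM in ATF4 KO cells and 331.4 ± 24.1 in wild type cells (log2 -0.36, SE 0.0651, adjusted p = 7.9e-06), with 10 of 12 ATF4 KO libraries below every wild type library.

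Galt averaged 64.3 ± 11.3 CPM in ATF4 KO cells with borrelidin and 46.3 ± 8.16 in wild type cells with borrelidin, a fold of 1.39 (log2 0.48, SE 0.0947, adjusted p = 3.8e-05). With vehicle it averaged 60.4 ± 6.15 CPM in ATF4 KO cells and 47.0 ± 8.35 in wild type cells, a fold of 1.29 (log2 0.36, SE 0.0983, adjusted p = 0.0028). Among the 32 libraries the vehicle difference did not pass (log2 0.33, adjusted p = 0.102). Pigo was higher in ATF4 KO cells with borrelidin by a log2 change of 0.62 (SE 0.168, adjusted p = 0.0018) with all libraries and of 0.34 (SE 0.0644, adjusted p = 1.9e-05) among the 32. Gne (log2 -0.28, adjusted p = 0.0280) and Slc35a1 (log2 -0.26, adjusted p = 0.0325) were lower in ATF4 KO cells, but without the 2 shallowest libraries alone neither passed (adjusted p = 0.0797 and 0.0802).

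Other genes of glycan and glycolipid metabolism in the same stretch were also examined, and 4 are given here. Fut9, a fucosyltransferase, averaged 3.25 CPM and is not described further. Galnt12, which starts mucin-type O-glycans by adding GalNAc to serine or threonine, fell with borrelidin in both lines. It had 10.9, 14.7 and 23.9 CPM in ATF4 KO cells with borrelidin, against 30.3, 34.3 and 39.0 with vehicle, and no borrelidin library reached the lowest vehicle one. In wild type cells it had 10.5, 20.02 and 29.8 CPM with borrelidin, against 26.6, 33.5 and 37.8 with vehicle, with 11 of 12 below. The fold changes were 0.482 in ATF4 KO (log2 -1.05, SE 0.119, adjusted p = 1.4e-09) and 0.614 in wild type cells (log2 -0.70, SE 0.119, adjusted p = 3.1e-06). Among the 32 libraries they were 0.446 and 0.578 and both passed (adjusted p = 1.6e-08 and 0.0011). Both falls exceeded in size every change with borrelidin seen in the 8 members among the 32 libraries, and the difference between the lines did not pass (log2 -0.35, adjusted p = 0.10).

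Gba2, a glucosylceramidase outside the lysosome, averaged 81.6 ± 5.61 CPM in wild type cells with borrelidin and 116.3 ± 19.3 with vehicle (log2 -0.51, SE 0.0885, adjusted p = 4.7e-06), and it still fell among the 32 libraries (log2 -0.27, adjusted p = 0.0311). In ATF4 KO cells it averaged 96.6 ± 14.4 CPM with borrelidin and 103.5 ± 19.0 with vehicle, which did not pass (adjusted p = 0.423). Dpy19l4, of the family of C-mannosyltransferases, had log2 changes of 0.02 in ATF4 KO and 0.05 in wild type cells (adjusted p = 0.879 and 0.563). Of these 4 genes, borrelidin raised 0 and lowered 1 in ATF4 KO cells, and raised 0 and lowered 2 in wild type cells, with all libraries and with the 32.

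**Figure D4:**
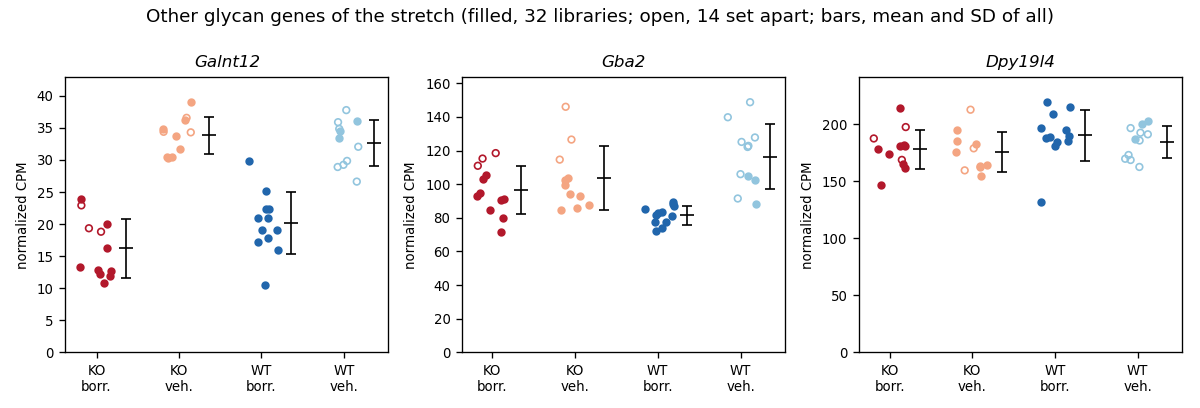
Normalized CPM (vertical axes, starting at 0) of Galnt12, Gba2 and Dpy19l4 in each library, with the groups in the order ATF4 KO borrelidin, ATF4 KO vehicle, wild type borrelidin and wild type vehicle; open circles are the 14 libraries set apart, filled circles the other 32, and bars the mean and SD of all. Galnt12 lies lower with borrelidin in both lines, also among the filled circles.

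For each member, the protein-coding gene of the stretch with the most similar 4 group means was sought among 171 genes of at least 5 CPM, by the root mean square difference of the centred log2 means. Gne and Nans had the same nearest gene, 1700022I11Rik (differences of 0.0363 and 0.0170 log2). The others were Hint2 for Manea (0.0291), Clta, a clathrin light chain, for Slc35a1 (0.0406), Wwp1, a ubiquitin ligase, for B4galt1 (0.0578), Nsmaf for Galt (0.0374), Msmp for Pigo (0.0581) and Polr1e, a subunit of RNA polymerase I, for Alg2 (0.0318). The median difference over the candidates lay between 0.236 and 0.380. With 4 points each, and with the 14 libraries in the means, these are descriptions of similar profiles.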

How the data were processed

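RNA of 46 MEF cultures was sequenced, and the authors deposited raw counts of reads per mouse gene identifier for each library, with no normalization and no pooling. The paper names fastp, HISAT2 and feature counts, while HISAT2, HTSeq, limma and the build mm10 stand in the submitters' processing notes. Their versions, the strand setting and the annotation release used were not given. The 5 closing rows name no gene and were left out throughout. They held on average 69.0% of reads (no feature), 10.8% (not aligned), 5.1% (low quality), 4.0% (not unique) and 0.3% (ambiguous). Groups came from the labels.

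Identifiers were named with GENCODE M21 (52083 of 55416 found). Tests used edgeR 4.0.16 in R 4.3.3 (filterByExpr, TMM, quasi-likelihood test on 4 group means over all 46 libraries, Benjamini-Hochberg over 8986 rows, threshold 0.05), and tables and figures were made in Python 3.11.15. Levels are TMM-normalized CPM, and CPM per kb uses merged exon lengths. The tests were checked on simulated counts with changes only in the ATF4 KO borrelidin libraries and no libraries standing apart. That check therefore does not cover the effect of the libraries set apart. Libraries were set apart where the widest gap of component 2 scores exceeded 50% of the range of their group. Alternatives were RLE factors, TMM on the stretch alone, no filter, DESeq2 1.42.0, limma 3.58.1 (voom), replicate blocks, the compared groups alone, the study's model of ATF4 activity and genotype, the library set as a block or left out, and a threshold of 1e-10. Leaving out the 2 shallowest libraries was chosen after seeing the data.

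Within a group no pair of libraries agreed within sampling noise (chi-square at least 1.96 per degree of freedom in 242 pairs). Same-numbered libraries of the ATF4 KO groups deviated from their group means together in 11 of 11 pairs (r 0.18 to 0.78), though in 2 of 8 pairs among the libraries not set apart. The numbers come from the labels.

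The named genes are the 8 members with at least 5 CPM, listed glycan genes of the stretch (values at 5 CPM or more) and, for each member, the gene with the nearest profile. Some results are not reported here. Members and lists were chosen with earlier results of these data known. The precision of a value is limited by 76 to 2122 counts per member and library.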

Additional observations from a re-analysis of the deposited data

Results flagged for a closer look

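The responses to borrelidin differed between the lines, by a test of the difference itself (edgeR quasi-likelihood, ATF4 KO response minus wild type response, all 46 libraries), for 5 genes. Manea gave -0.6806 on the log2 scale (adjusted p = 0.00016), Slc35a1 -0.5501 (adjusted p = 0.0045), B4galt1 -0.36 (adjusted p = 0.0033), Alg2 -0.5397 (adjusted p = 0.0084) and Pigo 0.8071 (adjusted p = 0.0092). Without the 14 libraries set apart only B4galt1 of these 5 passed.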

How the results depend on the processing

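Of 448 recomputed fold changes of the 8 genes, 351 kept direction and side of the threshold, 37 no longer passed, 22 newly passed and 38 changed sign, and none of those reversed was called both before and after. RLE factors, DESeq2 and the model of ATF4 activity and genotype changed none. The cause of the changes was not tested. At 76 counts, the lowest of a member in any library, sampling alone adds to the spread between libraries.

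Counts of called members were 3 in ATF4 KO, 5 in wild type, 5 for the difference, 3 with vehicle and 6 with borrelidin, where 30.3%, 59.4%, 33.6%, 35.3% and 49.8% of all rows were called. At the threshold of 1e-10 they were 0, 0, 0, 0 and 0, where 0.49%, 2.11%, 0.501%, 2.63% and 5.49% of all rows were called, and 0 also in the ATF4 KO response with no filter (6.09%). The ATF4 KO count was 1 with the compared groups alone (34% of all rows). It was 5 without the libraries set apart (41.8%), 5 with the library set as a block (43.1%), and 5 without both these and the 2 shallowest (48.6%). The count of differences of response was 1 without the libraries set apart (9.9%), 1 with the set as a block (20.4%) and 3 without both these and the 2 shallowest (15.4%). The vehicle count was 5 with the set as a block (35.1%).

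Without the libraries set apart, the sign changed for Gne (difference 0.049, vehicle -0.30), Nans (wild type -0.33, difference 0.069, vehicle -0.063, borrelidin 0.0064), Pigo (vehicle 0.018) and Slc35a1 (ATF4 KO -0.057, vehicle -0.031). Without these and the 2 shallowest it changed for Gne (difference 0.093, vehicle -0.30), Nans (wild type -0.39, difference 0.13, vehicle -0.069, borrelidin 0.058), Pigo (vehicle 0.011) and Slc35a1 (ATF4 KO -0.055, vehicle -0.038). With the set as a block it changed for Gne (difference 0.032, vehicle -0.18), Nans (wild type -0.47, difference 0.21, vehicle -0.23) and Pigo (wild type 0.10, vehicle 0.20). TMM on the stretch moved the median of all rows in wild type cells to -0.25, against -0.06, and changed B4galt1 (wild type -0.0040), Gne (vehicle -0.16), Nans (wild type -0.11, vehicle -0.056) and Slc35a1 (ATF4 KO -0.0045). No filter changed B4galt1 (vehicle 0.047), Galt (wild type 0.039), Gne (wild type 0.022) and Manea (ATF4 KO 0.0037). Without the 2 shallowest libraries alone Manea (ATF4 KO 0.0048) changed sign, and with limma voom Gne (wild type 0.011).

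With the replicate number as a block over all groups, Gne (wild type 0.0039) and Slc35a1 (ATF4 KO -0.00013) changed sign and 37 of 40 values kept direction and side. In the block fit of the ATF4 KO libraries alone 5 members were called (45.3% of all rows), Nans and Pigo being new. Outside the ATF4 KO groups the numbers did not pair libraries throughout (r over 0.1 in 2 of 11, 5 of 10 and 3 of 12 pairs). Between ATF4 KO vehicle and wild type vehicle, r was 0.35 to 0.50 for replicates 1 to 3, 9 and 10. In these pairs both libraries or neither were set apart. For replicates 4 to 8, where only the wild type library was set apart, r was -0.31 to -0.07. The fit of the compared groups alone gives no difference of responses.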

Other observations

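Pax5, a transcription factor of B cells, was examined as a marker of other cells and had 9.53, 14.3 and 39.3 CPM (lowest, median and highest library) in ATF4 KO cells with borrelidin and 4.27, 8.79 and 16.4 CPM in ATF4 KO cells with vehicle, against at most 1.12 and 1.33 CPM in wild type cells with borrelidin and with vehicle. The groups of the 2 lines did not overlap (edgeR quasi-likelihood test, log2 6.58 with borrelidin and 4.68 with vehicle, adjusted p = 1.9e-17 and 2.8e-13). Cd72, the other B cell gene of the list, averaged 107.0 CPM in ATF4 KO cells with borrelidin, 87.8 in ATF4 KO cells with vehicle, 88.2 in wild type cells with borrelidin and 87.2 in wild type cells with vehicle. The part of these genes in the differences between the lines was not tested.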
